A study of Mus musculus with 12 samples.

Results

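The mitochondrial genome of the mouse encodes subunits of 4 of the enzyme complexes that carry out oxidative phosphorylation. A set of 10 of its genes was followed here through the livers of 12 mice: mt-Nd1, mt-Nd2, mt-Nd4, mt-Nd5 and mt-Nd6 of complex I, mt-Cytb of complex III, mt-Co1, mt-Co2 and mt-Co3 of complex IV, and mt-Atp6 of complex V. The set is a list of names and its rule uses no measured value. All 10 were found among the 48526 genes of the deposited table and among the 11968 genes that passed the authors' filter on low counts. The mitochondrial genome holds 37 annotated genes in all, of which 13 encode proteins, 22 encode tRNAs and 2 encode rRNAs.

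The livers came from C57BL/6J mice in 4 groups of 3: female chow, female statin, male chow and male statin. For 4 weeks the mice ate chow without drug or the same chow with simvastatin, which blocks HMG-CoA reductase and so the synthesis of cholesterol, from an age of 8 to 10 weeks. The labels give the dose as 0.1 g per kg of body weight, whereas the study's methods give the same figure per kg of food, and the labels name the same diet formulation for all 4 groups. The labels name no transgene or engineered allele, each library is 1 liver of 1 mouse, and the labels do not say whether mice shared a cage or a litter. The comparisons ask whether the statin changed the members in females, whether it changed them in males, and whether those changes differed.

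Both strands of the circular genome are transcribed as long precursors. In the usual account the tRNAs between the coding genes mark the cleavage sites, and the released mRNAs receive short poly(A) tails. Most of the genes, and 9 of the 10 members, are read from the heavy strand promoter, and mt-Nd6 alone among the coding genes is encoded on the opposite strand. Liver is rich in mitochondria, and the nucleus supplies the polymerase, the processing enzymes and most subunits of the same complexes. In bulk tissue, fewer mitochondria per cell, less RNA per mitochondrion and fewer hepatocytes cannot be told apart.

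On chromosome M of GRCm38 the complex I members lie as single exons, mt-Nd1 (ENSMUSG00000064341.1) at chrM:2751-3707, mt-Nd2 (ENSMUSG00000064345.1) at chrM:3914-4951, mt-Nd4 (ENSMUSG00000064363.1) at chrM:10167-11544, mt-Nd5 (ENSMUSG00000064367.1) at chrM:11742-13565 and, on the minus strand, mt-Nd6 (ENSMUSG00000064368.1) at chrM:13552-14070. The others lie on the plus strand, mt-Co1 (ENSMUSG00000064351.1) at chrM:5328-6872, mt-Co2 (ENSMUSG00000064354.1) at chrM:7013-7696, mt-Atp6 (ENSMUSG00000064357.1) at chrM:7927-8607, mt-Co3 (ENSMUSG00000064358.1) at chrM:8607-9390 and mt-Cytb (ENSMUSG00000064370.1) at chrM:14145-15288. mt-Atp6 shares 43 bases with mt-Atp8, and mt-Nd4 shares 7 with mt-Nd4l; how reads over such overlaps were counted is not given in the sources used here.

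Each liver gave between 46066381 and 60419223 counted reads. All 8 hepatocyte markers were above 3 counts in every liver, and the 4 skeletal muscle markers together reached at most 0.0404 CPM (counts, the reads of a gene per 1000000 counted reads of that liver). Albumin took between 5.71% and 12.7% of the counts. Libraries also differed in the balance of long and short transcripts, measured as the median log2 deviation from the group mean of 1908 long genes minus that of 1906 short genes (the longest and the shortest quartile by exon length). This contrast ran from -0.32 in female statin 1 to 0.38 in female statin 2. In 4 of 4 groups the liver with the highest contrast had the lowest summed share of the members. The liver with the lowest contrast had the highest share in the female statin group only. The part of RNA quality in this was not tested.

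The members fell into 3 ranges of level. Of the 10, 6 stood at 2225 CPM or more in every liver, mt-Nd6 lay between 55.0 and 120.2 CPM, and mt-Co2, mt-Atp6 and mt-Co3 stood at a few CPM or less. Per kilobase of gene, averaged over the 12 livers, mt-Co1 had 13090 CPM, mt-Cytb 7561, mt-Nd1 4611, mt-Nd2 4372, mt-Nd5 2770, mt-Nd4 2026 and mt-Nd6 162. The other members were far below, with 3.91 CPM per kilobase for mt-Co3, 2.60 for mt-Co2 and 1.52 for mt-Atp6. In their ranges over livers, mt-Nd1 (3859 to 5577 CPM per kilobase) overlapped with mt-Nd2 (3365 to 5880), mt-Nd2 with mt-Nd5 (2165 to 3482) and mt-Nd5 with mt-Nd4 (1615 to 2520). Among the low members, mt-Co2 overlapped with both mt-Co3 and mt-Atp6. mt-Co1 (10912 to 16959), mt-Cytb and mt-Nd6 (106 to 232) overlapped with no neighbour in this order.

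**Figure D1:**
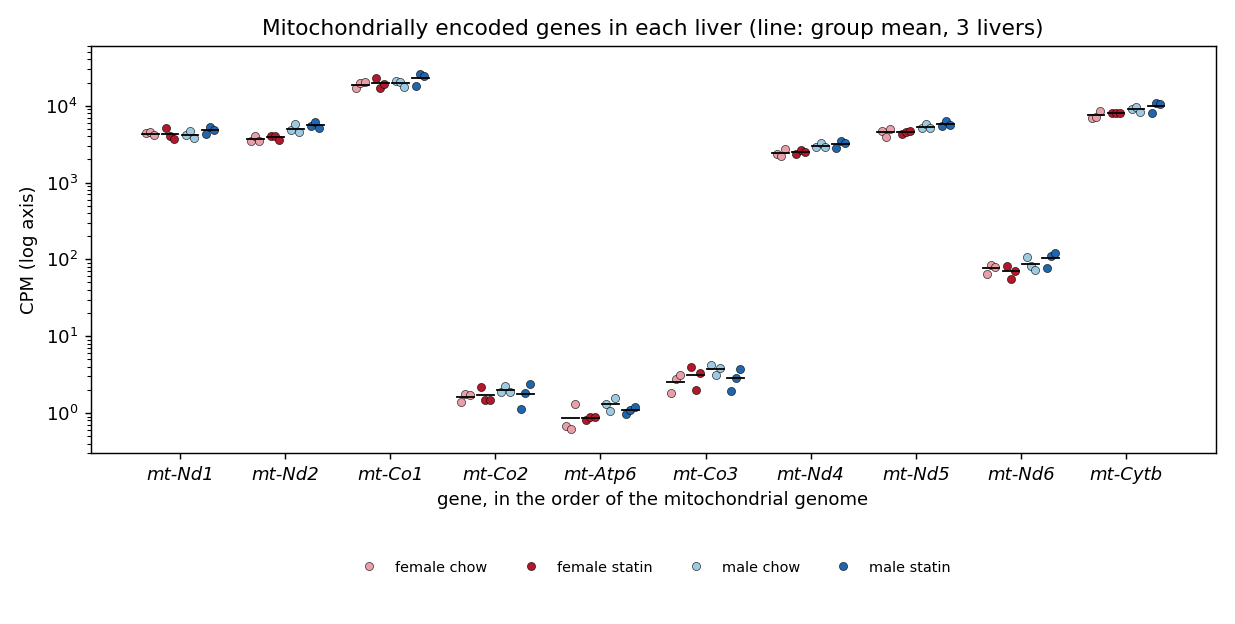
CPM of the 10 members in each of the 12 livers on a log axis, in the order of the mitochondrial genome; points are livers, lines are the means of 3 livers. mt-Co1 reaches 26202 CPM, mt-Nd6 lies between 55.0 and 120.2, and mt-Co2, mt-Atp6 and mt-Co3 lie between 0.619 and 4.25.

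mt-Co1, mt-Co2 and mt-Co3 encode the catalytic core of the same enzyme, cytochrome c oxidase, and are transcribed from the same strand. Their read counts were nevertheless of very different size. mt-Co1 had between 872073 and 1297443 reads per liver, mt-Co3 between 95 and 222, mt-Co2 between 55 and 135 and mt-Atp6 between 31 and 86. The same low range held for the other 3 protein-coding genes, with 0.123 to 0.677 CPM for mt-Nd3, 0.0545 to 0.366 CPM for mt-Nd4l and 0.205 to 0.566 CPM for mt-Atp8.

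The low members share a feature of their sequence. The nuclear genome carries fragments of mitochondrial DNA, and a read that matches a mitochondrial gene and such a copy equally well has no unique origin. The exons of the GENCODE vM21 transcripts (GRCm38) were therefore cut into every window of 50 bases, the length of 1 read end, and each window of a mitochondrial gene was looked up in the nuclear transcripts. Of the windows, 100% of mt-Co2, 99.9% of mt-Co3 and 99.5% of mt-Atp6 occurred in a nuclear transcript, as did 98.8% of mt-Nd4l and 98.0% of mt-Nd3. The share was 62.2% for mt-Nd4, 51.1% for mt-Co1, 8.19% for mt-Nd2 and 7.61% for mt-Nd5, and it was 0 for mt-Nd1, mt-Nd6 and mt-Cytb.

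The copies lie side by side on chromosome 1, on the minus strand, between bases 24611535 and 24616197. They are annotated as unprocessed pseudogenes: Gm28439 (a copy of part of mt-Nd4), Gm10222 (mt-Nd4l), Gm28438 (mt-Nd3), Gm28437 (mt-Co3), Gm10925 (mt-Atp6), Gm28661 (mt-Co2) and Gm29216 (the end of mt-Co1). Gm28661 matched mt-Co2 over 681 bases, Gm10925 matched mt-Atp6 over 678, Gm28437 matched mt-Co3 over 783 and Gm28439 matched mt-Nd4 over 876, each with 0 differing bases. Gm13340, a copy on chromosome 2, differed from mt-Co1 at 37 of 1545 bases. Stretches of these genes are shown because a read from an identical stretch has no unique origin. The stretch of mt-Co2 from base 61 to base 120 (chrM:7073-7132, plus strand) is identical in the chromosome 1 copy (chr1:24615446-24615505, minus strand) and in Gm13341 on chromosome 2 (chr2:22587843-22587902, minus strand), and no capital marks a difference:
mt-Co2: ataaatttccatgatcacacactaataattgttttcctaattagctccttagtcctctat
Gm28661: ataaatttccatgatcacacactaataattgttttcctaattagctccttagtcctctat
Gm13341: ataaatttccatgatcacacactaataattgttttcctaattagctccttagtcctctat

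The annotated copies on chromosome 1 stop just short of the ends of these genes, whereas Gm13341 on chromosome 2 reaches the last base of mt-Co2. Below are the last 30 bases of mt-Co2 (chrM:7667-7696), mt-Atp6 (chrM:8578-8607) and mt-Co3 (chrM:9361-9390), all on the plus strand, with capitals for the bases that lie beyond the annotated end of the chromosome 1 copy:
mt-Co2: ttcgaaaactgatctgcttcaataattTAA
mt-Atp6: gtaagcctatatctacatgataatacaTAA
mt-Co3: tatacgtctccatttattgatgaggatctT

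On chromosome 1, mt-Co1 and mt-Nd4 are copied only in part, and both had high counts. In mt-Co1 the chromosome 1 copy begins within the gene. The stretch of mt-Co1 from base 1054 to base 1113 (chrM:6381-6440, plus strand) and the first bases of Gm29216 (chr1:24616138-24616197, minus strand) differ at 6 places, in capitals, and are identical after them. Counted from the 5′ end of mt-Co1, with the mitochondrial base first, these are T1056A, C1057T, A1059G, A1060G, C1062A and A1066T:
mt-Co1: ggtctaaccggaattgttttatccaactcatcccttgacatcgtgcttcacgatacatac
Gm29216: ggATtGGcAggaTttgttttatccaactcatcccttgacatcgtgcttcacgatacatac

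The chromosome 2 copy covers mt-Co1 from its start but carries scattered differences. From base 31 to base 90 (chrM:5358-5417, plus strand, against chr2:22589558-22589617, minus strand) they are C54A, A60G and G87A, in capitals:
mt-Co1: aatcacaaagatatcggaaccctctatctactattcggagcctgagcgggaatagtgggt
Gm13340: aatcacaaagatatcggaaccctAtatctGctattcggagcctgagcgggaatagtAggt

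In mt-Nd4 the copy Gm28439 ends within the gene. The stretch from base 847 to base 906 (chrM:11013-11072, plus strand) has in capitals the bases that have no counterpart in Gm28439:
mt-Nd4: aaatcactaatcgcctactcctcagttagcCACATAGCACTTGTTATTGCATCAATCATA

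The copies had few counted reads as well. Gm28661 had 28 to 70 reads per liver, Gm10925 45 to 112 and Gm28437 45 to 143, and all 7 copies on chromosome 1 together had between 238 and 501. The chromosome 2 copies Gm13340 and Gm13341 had 476 to 1108 and 50 to 105 reads. Each low member and its copy had counts of the same order, since mt-Co2 had 1.49 to 2.38 reads for each read of Gm28661, mt-Co3 had 1.55 to 2.17 for each read of Gm28437 and mt-Atp6 had 0.595 to 1.13 for each read of Gm10925. How reads with several matches were treated in the alignment and counting is not given in the sources used here, and its part in the low counts was not tested.

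mt-Atp8 is the exception to the pattern of shared windows, because 0% of its windows occurred in an annotated nuclear transcript. Only annotated transcripts were searched, and 233 bases lie between Gm10925 and Gm28661 on chromosome 1. The distance between the matching points on the mitochondrial genome, which spans most of mt-Atp8, is also 233 bases. The sequence of that nuclear gap was not analysed here, so the shares of windows are lower limits.

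**Figure D2:**
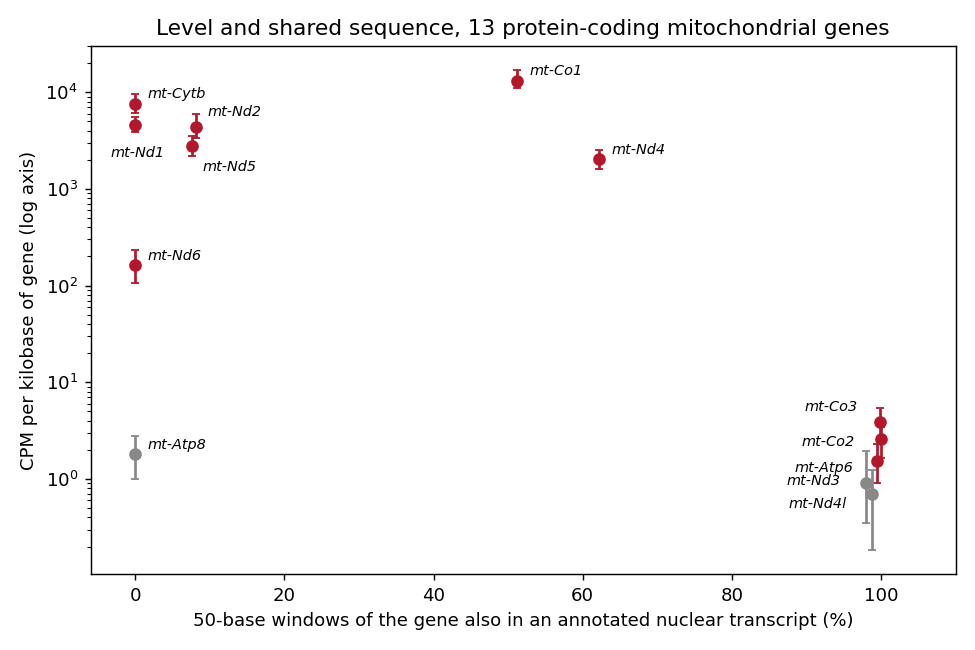
Mean CPM per kilobase (log axis, bars from the lowest to the highest of 12 livers) against the percent of 50-base windows found in an annotated nuclear transcript, for the 13 protein-coding mitochondrial genes (red, the 10 members; grey, the other 3). The 5 genes with at least 98.0% of windows shared have at most 3.91 CPM per kilobase, and mt-Atp8 is at a similar level with 0% shared.

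Counting length only where a window is unique to the mitochondrial transcripts changed the order of the members. On this scale, chosen after the values were seen, mt-Co1 rose from 13090 to 27666 CPM per kilobase and mt-Nd4 from 2026 to 5561, which placed the mean of mt-Nd4 above mt-Nd2 (4998), mt-Nd1 (4860) and mt-Nd5 (3081). The scale assumes that no counted read came from a shared window, and it takes each read end alone. How such reads were treated is not given, and the mate of a shared end can lie in a unique stretch. The new order therefore rests on an assumption that was not tested. The range over livers of mt-Nd4 (4433 to 6918) overlapped with those of mt-Nd2 (3846 to 6722) and mt-Nd1 (4067 to 5878). No level on this scale is given for mt-Co2, mt-Co3 and mt-Atp6, which have 0, 1 and 3 such windows. Values for these 3 are given for the reads that were counted, and not as levels of the transcripts.

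The 10 members summed to between 3.89% and 5.85% of all counted reads of a liver. In females, the share was 3.89%, 4.15% and 4.41% on chow and 4.67%, 4.04% and 4.16% on statin. In males, it was 4.72%, 5.004% and 4.25% on chow and 4.41%, 5.85% and 5.37% on statin. The diets overlapped in both sexes, and the highest value belonged to male statin 2.

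As means with SD of 3 livers, the share was 4.15% ± 0.260 on chow and 4.29% ± 0.336 on statin in females, a difference of 0.139 percentage points. In males it was 4.66% ± 0.381 on chow and 5.21% ± 0.734 on statin, a difference of 0.552 percentage points. Each difference was smaller than the SD of the statin livers of its sex. The value in females fell to 0.00924 without female chow 1, turned to -0.0520 without female statin 1, and was 0.265 without female statin 2 and 0.269 without female chow 3. The value in males was 0.953 without male statin 1, 0.348 without male chow 3 and 0.233 without male statin 2. Nearly all of the share came from complexes I, III and IV: mt-Co1 alone made up between 40.6% and 48.7% of the members' reads, the complex I members 34.1% to 41.1% and mt-Cytb 17.2% to 19.9%.

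**Figure D3:**
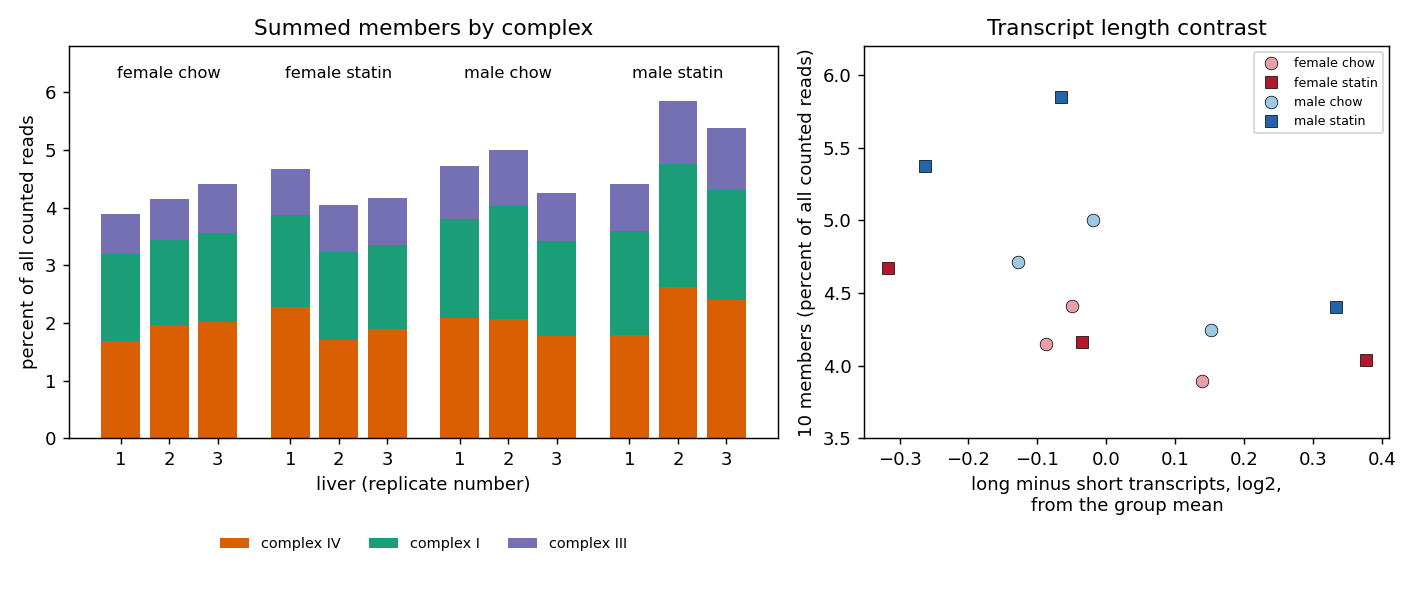
Left, percent of all counted reads taken by the members of complexes IV, I and III in each liver (complex V, mt-Atp6, is at most 0.000157% and too small to draw). Right, the summed share of the 10 members against the contrast of long and short transcripts (log2 deviation from the group mean). In each group the liver farthest right is the lowest, and the liver farthest left is the highest in female statin only. The male statin livers spread from 4.41% to 5.85%.

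No member passed the test for simvastatin in females. With edgeR's quasi-likelihood test and Benjamini-Hochberg adjustment over 11968 genes, 0 of 10 members were called at an adjusted p under 0.05 (0.1% of all genes were), and 0 had an unadjusted p under 0.05 (10.5% of all genes). In 0 of 10 did all statin livers lie above all chow livers (6.03% of all genes) and in 0 of 10 below them (5.97%), and DESeq2 and limma also called 0 members (2.26% and 0.109% of all genes). The median log2 fold change of the members was 0.08, against 0.01 for all genes. The lowest adjusted p of any member was 0.841, for mt-Co3.

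mt-Co1, the catalytic subunit of cytochrome c oxidase, had 16859, 19570 and 20145 CPM in female chow livers and 22730, 17038 and 18973 in female statin livers. The highest and the lowest but one of the 6 values were both on statin, so the groups overlapped. The log2 fold change was 0.09 (SE 0.17, 95% interval -0.27 to 0.45, edgeR adjusted p = 0.955).

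mt-Cytb encodes cytochrome b, the electron-carrying core of complex III. It had 7008, 7118 and 8580 CPM in female chow livers and 8041, 8026 and 8136 CPM in female statin livers. The statin livers lay close together, between the chow values. The log2 fold change was 0.13 (SE 0.15, edgeR adjusted p = 0.894).

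The complex I members encode subunits of its membrane arm, through which protons are pumped. mt-Nd1 had 4366, 4544 and 4099 CPM in female chow livers and 5089, 4050 and 3693 CPM in female statin livers. mt-Nd5 had 4753, 3949 and 4936 CPM on chow and 4306, 4508 and 4655 on statin. Statin livers lay on either side of the chow livers for mt-Nd1 and within their range for mt-Nd5. The log2 fold changes of the complex I members in females ran from -0.09 for mt-Nd6 to 0.12 for mt-Nd2. Over the 7 members at 10 CPM or more, the 95% intervals in females together spanned -0.51 to 0.46 on the log2 scale, that is 0.704-fold to 1.38-fold.

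The members with few counted reads had wider intervals. mt-Co3 had 1.83, 2.75 and 3.08 CPM in female chow livers and 3.99, 1.97 and 3.33 in female statin livers, with a log2 fold change of 0.32 (SE 0.29, edgeR adjusted p = 0.841). mt-Co2 and mt-Atp6, a subunit of the proton channel of ATP synthase, had log2 fold changes of 0.12 and 0.05. Across these 3 genes the intervals reached from 0.653-fold to 1.94-fold.

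No member passed the test in males either. Again 0 of 10 members were called at an adjusted p under 0.05 (0.0% of all genes), 0 had an unadjusted p under 0.05 (1.96% of all genes) and 0 did not overlap between diets (7.95% of all genes). DESeq2 and limma called 0 members (0.0334% and 0.0% of all genes). The median log2 fold change of the members was 0.10, against 0.00 for all genes.

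The 7 members at 10 CPM or more had log2 fold changes between 0.05 (mt-Nd4) and 0.22 (mt-Nd6) in males, and the 3 low members between -0.41 (mt-Co3) and -0.19 (mt-Co2). mt-Co1 had 20808, 20653 and 17782 CPM in male chow livers and 17877, 26202 and 24052 CPM in male statin livers. Male statin 1 lay at the level of the lowest chow liver, and the other statin livers lay above all chow livers. Its log2 fold change was 0.18 (SE 0.17, 95% interval -0.18 to 0.54, edgeR adjusted p = 1.00). For the 7 members the 95% intervals in males together spanned 0.832-fold to 1.55-fold.

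mt-Nd6, the one member on the light strand, had 108.3, 81.6 and 72.2 CPM in male chow livers and 77.0, 110.9 and 120.2 CPM in male statin livers. Set against the other 9 members it had between 1.36 and 2.30 reads per 1000, with overlapping diets in both sexes. mt-Co3 had 4.25, 3.13 and 3.86 CPM on chow and 1.95, 2.87 and 3.76 CPM on statin in males. Its reads were lower in the statin livers 1 and 2 than in any chow liver, and statin 3 lay among the chow livers.

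The copies on chromosome 1 that passed the filter had values on the same side as the low members in males. The log2 fold change in males was -0.62 for Gm10925 (SE 0.22, unadjusted p = 0.0154, edgeR adjusted p = 1.00), -0.47 for Gm29216 (unadjusted p = 0.0377, edgeR adjusted p = 1.00) and -0.50 for Gm28437, against -0.28 for mt-Atp6, 0.18 for mt-Co1 and -0.41 for mt-Co3. Gm10925 had 2.07, 1.70 and 2.05 CPM in male chow livers and 1.29, 1.05 and 1.48 CPM in male statin livers, which did not overlap. In females these copies had log2 fold changes of 0.25, -0.14 and 0.12. None of the 3 passed the adjusted test for the statin in either sex, and 2 of 3 had an unadjusted p under 0.05 in males (1.96% of all genes). Between the sexes Gm10925 was lower in females on chow (log2 difference -0.95, edgeR adjusted p = 0.0196) and over both diets (-0.51, adjusted p = 0.0429), and on statin its log2 difference was -0.07 (adjusted p = 0.918).

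**Figure D4:**
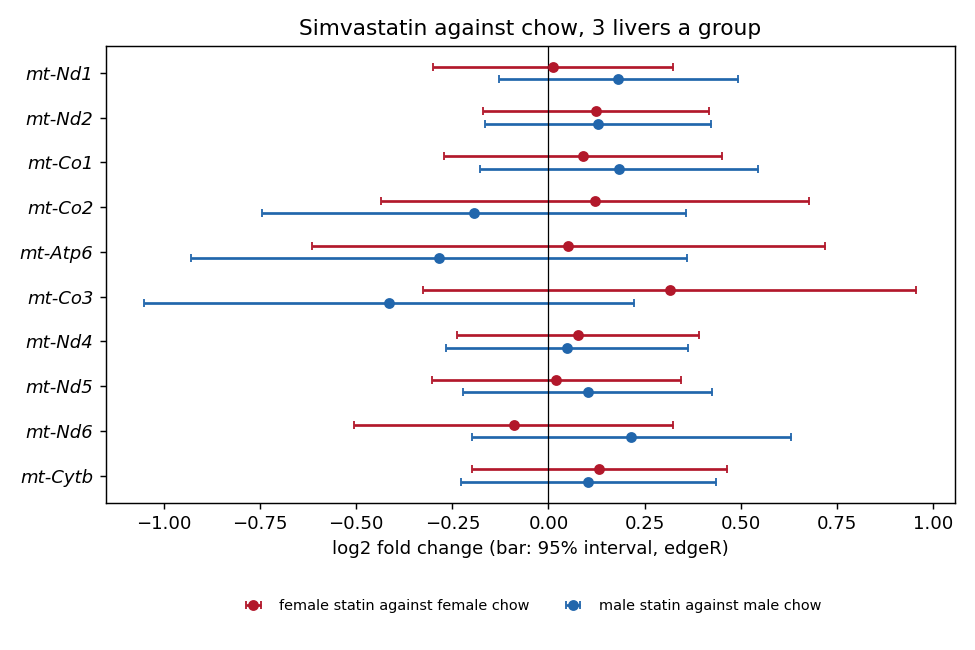
Log2 fold change of each member, statin against chow, in females (red) and males (blue), with 95% intervals from edgeR; 3 livers a group. All 20 intervals include 0, and those of mt-Co2, mt-Atp6 and mt-Co3 are the widest.

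The responses of females and males were compared directly. The sex by statin interaction called 0 of 10 members at an adjusted p under 0.05 (0.0% of all genes) and 0 at an unadjusted p under 0.05 (8.01% of all genes), and DESeq2 and limma called 0 members (1.02% and 0.0% of all genes). The lowest unadjusted p was 0.104, for mt-Co3, with a log2 difference of 0.73 (SE 0.42, edgeR adjusted p = 0.778). For the 7 members at 10 CPM or more, the intervals of the difference between females and males spanned 0.539-fold to 1.41-fold.

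The members were also compared between females and males over both diets. The fitted log2 difference was below 0, that is lower in females, for all 10 members, with a median of -0.22. For all genes the median was -0.01 and the quartiles were -0.17 and 0.20. The difference of mt-Nd1 was 0.00 and turned to 0.04 under upper quartile scaling, where 9 of 10 members were below 0. Those of mt-Co2, mt-Co3 and mt-Atp6 rest on few counted reads. This comparison, which averages the chow and the statin difference, was added after the values had been seen. It called 1 of 10 members at an adjusted p under 0.05, mt-Nd2, where 6.91% of all genes were called lower and 18.1% in either direction. At an unadjusted p under 0.05 there were 4 members, mt-Nd2, mt-Nd4, mt-Nd5 and mt-Nd6, all lower in females (13.6% of all genes were lower at that threshold). The log2 differences of the members that did not pass either threshold were -0.41 for mt-Atp6 (SE 0.21), -0.21 for mt-Cytb (SE 0.11), -0.16 for mt-Co3 (SE 0.21), -0.12 for mt-Co2 (SE 0.18), -0.08 for mt-Co1 (SE 0.12) and 0.00 for mt-Nd1. That of mt-Nd6 was -0.31 (SE 0.13, edgeR adjusted p = 0.133). DESeq2 called mt-Nd2, mt-Nd4 and mt-Nd5 (9.99% of all genes were called lower), library size alone as scaling called the same 3 members (11.0%), and without female chow 3 mt-Nd2 and mt-Atp6 were called (5.58%).

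Markers of other cell types also differed between the sexes. The 7 Kupffer cell and macrophage markers, all above 3 counts in every liver, summed to 509 to 633 CPM in female and 282 to 453 CPM in male chow livers, and to 427 to 751 and 277 to 349 CPM in statin livers, with no overlap on either diet. The 6 stellate cell markers (307 to 382 CPM in females, 198 to 228 in males) and the 6 endothelial markers (311 to 333 and 220 to 288) were higher in females without overlap on chow and overlapped on statin. The 5 cholangiocyte markers were also higher in females on chow (30.7 to 45.8 against 26.9 to 29.4 CPM) and the 5 erythroid genes lower (173 to 191 against 232 to 251 CPM), and both lists overlapped on statin. Summed, the 8 hepatocyte markers overlapped on chow and were higher in females on statin, at 120716 to 154874 against 89718 to 103198 CPM. Albumin, 1 of these markers, took 9.85% to 12.7% of the counts in female statin livers and 6.34% to 7.13% in male statin livers. It made up most of these sums, and the other hepatocyte markers were not compared apart from it. The part of all these cell type markers in the sex difference of the members was not tested.

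mt-Nd2, a membrane-arm subunit of complex I, had 3493, 3981 and 3507 CPM in female chow livers and 4067, 4048 and 3535 CPM in female statin livers. It had 4861, 5716 and 4548 CPM in male chow livers and 5443, 6104 and 5154 CPM in male statin livers. Every female liver lay below every male liver. Over both diets the log2 difference was -0.43 (SE 0.10, 95% interval -0.63 to -0.22, edgeR adjusted p = 0.00900), that is 0.744-fold. Within chow it was -0.42 (edgeR adjusted p = 0.0673) and within statin -0.43 (adjusted p = 0.0881), so neither diet alone passed.

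mt-Nd4 ran from 2225 to 2758 CPM in females and from 2776 to 3473 CPM in males, and mt-Nd5 from 3949 to 4936 CPM and from 5114 to 6350 CPM. Their log2 differences were -0.25 (SE 0.10, edgeR adjusted p = 0.111) and -0.24 (SE 0.11, adjusted p = 0.147). On the TMM-normalized scale used in the test, 2 members, mt-Nd2 and mt-Nd4, did not overlap between sexes (3.63% of all genes were lower in females without overlap). In plain CPM mt-Nd5 was a further one, and the share of all genes on that scale is not given here. mt-Nd1, of the same complex and encoded just before mt-Nd2, ran from 3693 to 5089 CPM in females and from 3747 to 5337 CPM in males, and its log2 difference was 0.00 (SE 0.10, 95% interval -0.22 to 0.22).

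On each diet alone, edgeR called 0 members at an adjusted p under 0.05 (10.4% of all genes on chow and 6.28% on statin). On chow, 1 member was lower in females at an unadjusted p under 0.05 (11.6% of all genes) and 4 were lower in females without overlap (19.1% of all genes). On statin, 2 were lower at an unadjusted p under 0.05 (7.21% of all genes) and 4 were lower without overlap (8.46% of all genes). mt-Nd2, mt-Nd4 and mt-Nd5 were among the non-overlapping members on both diets, joined by mt-Co2 on chow and by mt-Atp6 on statin. DESeq2 called mt-Nd2 on each diet (7.27% of all genes were called lower on chow and 3.78% on statin).

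The contrast between mt-Nd1 and mt-Nd2 was read within each liver, where depth and scaling cancel. mt-Nd2 had 0.800, 0.876 and 0.855 reads per read of mt-Nd1 in female chow livers and 0.799, 0.999 and 0.957 in female statin livers. In males it had 1.17, 1.21 and 1.21 on chow and 1.26, 1.14 and 1.07 on statin. mt-Nd2 was below mt-Nd1 in 6 of 6 female livers and above it in 6 of 6 male livers. The pair was chosen after its values were seen, so no test is given. Of the 21 pairs among the 7 members at 10 CPM or more it was the only one that separated the sexes over both diets, a share of 4.76%, and among all pairs of genes at 10 CPM or more 7.65% did so. On chow alone 6 of 21 pairs separated the sexes (39.4% of all gene pairs), and on statin alone 2 of 21 did (18.0%).

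**Figure D5:**
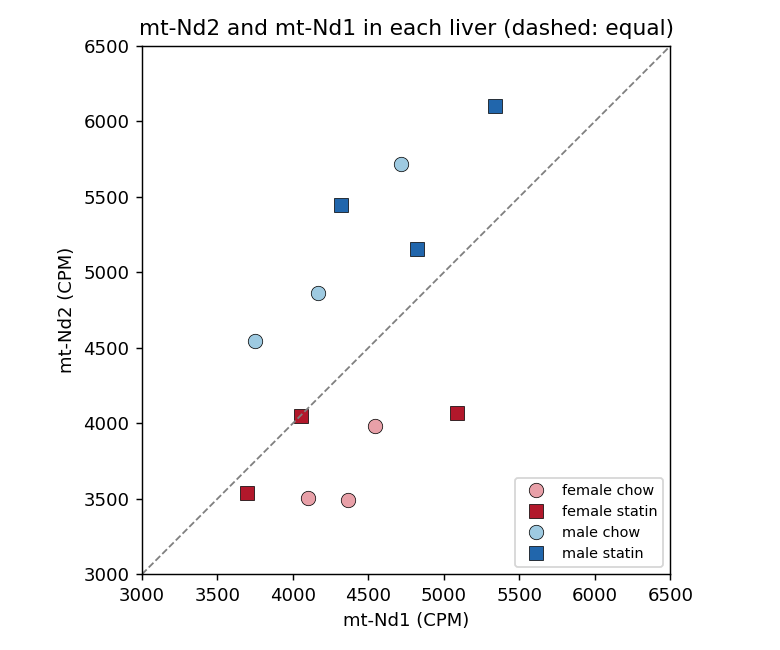
mt-Nd2 against mt-Nd1 in CPM, 1 point for each of 12 livers (circles chow, squares statin), with the line of equal values. All 6 female livers lie below the line, at 0.799 to 0.999 reads of mt-Nd2 per read of mt-Nd1, and all 6 male livers above it, at 1.07 to 1.26.

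The diets separated few pairs. In females the ratio of mt-Co1 to mt-Nd6 did not overlap, with a mean of 248 ± 12.99 on chow and 284 ± 23.2 on statin (SD, n = 3), and it was 1 of 21 pairs, against 13.6% of all gene pairs. In males the ratio of mt-Nd1 to mt-Nd4 did not overlap, with 1.39 ± 0.0808 on chow and 1.52 ± 0.0428 on statin, again 1 of 21, against 9.05% of all gene pairs. Both pairs were singled out after their values were seen.

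The members differed in how tightly they were held within a group. The within-group SD on the log2 scale was 0.12 for mt-Nd5, 0.13 for mt-Nd2 and mt-Nd4, 0.16 for mt-Cytb, 0.17 for mt-Nd1, 0.20 for mt-Co1 and 0.29 for mt-Nd6. It was 0.34 for mt-Co2 and mt-Atp6 and 0.42 for mt-Co3. Counting error alone gives a coefficient of variation of 8.09% to 13.9% in these 3, and of at most 1.53% in the other 7.

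The summed share of the members was compared with every nuclear gene with a mean of at least 10 CPM, over 12 livers and as deviations from the group means. Among the genes most like it were Nqo1, a quinone reductase, with r = 0.952 (rho 0.958), Chic2 with r = 0.948 (rho 0.951), Rtn4, a protein of tubular endoplasmic reticulum, with r = 0.947 (rho 0.909) and 2610528J11Rik with r = 0.936 (rho 0.909). Of the 7628 genes compared, 0.380% had r over 0.9. The 12 points share their library, depth and transcript length balance, so this is a description only.

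The nuclear genes that make and handle mitochondrial RNA were read beside the members. Of 15 tested genes of mitochondrial DNA transcription and replication, 0 rose and 0 fell with the statin in females or in males by edgeR's adjusted p, with 3 at an unadjusted p under 0.05 in females (10.5% of all genes) and 0 in males (1.96%). Tfam, which packages mitochondrial DNA and activates its promoters, had 36.4, 43.5 and 40.8 CPM in female chow livers and 60.9, 43.2 and 47.6 CPM in female statin livers. Only female statin 2 lay within the chow range. Its log2 fold change was 0.36 (SE 0.13, unadjusted p = 0.0137, edgeR adjusted p = 0.312). Polg2, the accessory subunit of the mitochondrial DNA polymerase, had a log2 fold change of -0.33 in females (adjusted p = 0.382). In males Ssbp1, the mitochondrial single-strand binding protein, had 0.15 and Tfam 0.10 (both adjusted p = 1.00).

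Of 21 genes of mitochondrial RNA processing, polyadenylation and decay, 0 passed in females and 0 in males, with 0 at an unadjusted p under 0.05 in females (10.5% of all genes) and 0 in males (1.96%). The median log2 fold change was 0.03 in females and 0.07 in males. The smallest p-values belonged to Rexo2, an oligoribonuclease, at -0.32 in females, and to Supv3l1, the helicase of the mitochondrial degradosome, at 0.20 in females. In males they belonged to Ptcd1 at -0.17 and Fastkd1 at 0.13, both RNA-binding proteins of mitochondria.

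Of 8 tested nuclear regulators 0 passed in either sex, with 1 at an unadjusted p under 0.05 in females (10.5% of all genes). Ppargc1b, a coactivator of mitochondrial gene programs, had 9.49, 13.97 and 14.9 CPM in female chow livers and 9.29, 10.5 and 5.90 CPM in female statin livers, with a log2 fold change of -0.54 (SE 0.23, edgeR adjusted p = 0.432). Female chow 1 lay among the statin livers. Pprc1, a related coactivator, had -0.31 in females and 0.22 in males, and Gabpb1, a subunit of the transcription factor NRF-2, had -0.11 in males.

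The nuclear subunits of the same complexes were compared in the same way. Of 21 core nuclear subunits 0 passed in either sex, where 0.1% of all genes passed in females and 0.0% in males. Their median log2 fold change was -0.09 in females and 0.03 in males, against 0.01 and 0.00 for all genes. Atp5b, the catalytic subunit of ATP synthase, had -0.21 and Uqcrc1 of complex III had -0.17 in females, and Atp5d had -0.12 and Cyc1, cytochrome c1, had 0.12 in males. Complex II is wholly nuclear in origin, and 0 of its 4 genes passed, with medians of -0.15 in females and 0.10 in males. Sdhb had -0.22 and Sdha -0.23 in females, and Sdhb had 0.18 and Sdhd 0.22 in males.

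Between the sexes over both diets, 5 of the 21 processing genes were lower in females and 0 higher (6.91% of all genes were lower). They were Grsf1, which organizes the RNA granules of mitochondria (log2 difference -0.39), Hsd17b10, a subunit of mitochondrial RNase P (-0.62), Nsun4 (-0.37), Ptcd1 (-0.25) and Fastkd1 (-0.23). Grsf1 had 82.5 to 102.2 CPM in the 6 female livers and 117.9 to 141.6 CPM in the 6 male livers, with no overlap (edgeR adjusted p = 0.00353). Of the transcription and replication genes 1 was lower in females, Polg2 (-0.52, adjusted p = 0.00225), and of the core nuclear subunits 0 differed, with 0 at an unadjusted p under 0.05 and a median of 0.05.

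The mitochondrial rRNAs and tRNAs were counted in the same libraries. mt-Rnr1 and mt-Rnr2, the rRNAs of the mitochondrial ribosome, together took 0.127%, 0.287% and 0.138% of the counts in female chow livers and 0.220%, 0.130% and 0.164% in female statin livers. Female chow 2 had the highest rRNA share of all 12 livers while its share of the members was in the middle of its group, at 6.91 rRNA reads per 100 reads of the members against 3.10 to 5.19 in the other livers. In males the share was 0.209%, 0.155% and 0.143% on chow and 0.179%, 0.274% and 0.279% on statin. The log2 fold change of mt-Rnr1 in males was 0.56 (SE 0.26, unadjusted p = 0.0536, edgeR adjusted p = 1.00). Of the 22 tRNA genes 9 had 0 reads in every liver, and 3 were above 1 CPM in every liver: mt-Tm and mt-Tw, encoded on either side of mt-Nd2, and mt-Ti, encoded beside mt-Nd1.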

How the data were processed

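Liver RNA of 12 mice was sequenced from poly(A)-selected libraries, paired-end with 50 bases per end. The labels call the libraries strand-specific; the strand setting of the counting is not given in the sources used here, so reads of mt-Nd5 and mt-Nd6, which overlap by 14 bases on opposite strands, may be exchanged there. The submitters' processing notes name STAR 2.4.1a, HTSeq, edgeR 3.28.1 and GRCm38. The authors deposited raw counts for 11968 genes, which exceed 1 CPM in 6 or more livers (checked on the values; the table is described as TMM-normalized, yet holds whole reads), and CPM for 48526 genes before that filter. Of the non-zero deposited CPM values 100% gave whole reads within 0.05 reads, and 0 of these differed from the deposited counts. No column was left out.

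The deposited counts were fitted with edgeR 4.0.16 (quasi-likelihood, TMM, 4 groups in one fit, no covariate, common dispersion 0.0380, prior degrees of freedom 4.14, two-sided, Benjamini-Hochberg over 11968 genes). Standard errors were obtained from the fold change and its F statistic, and intervals from the t distribution on the fit's degrees of freedom. limma 3.58.1 on log2(CPM + 1) or log2(CPM + 0.1), DESeq2 1.42.0, other scalings, filters, a replicate block and leaving out each liver were alternatives. Each library is described as a separate mouse, and p-values measure the spread between these mice. Shares of windows and positions use GENCODE vM21 (GRCm38); the study names another annotation release of the same build. The genes named were the members, the other mitochondrial genes, nuclear copies sharing at least 50% of their 50-base windows, from each nuclear list those past the adjusted threshold or else the 2 with the smallest p in each sex, and the 5 genes most like the summed share, of which 1 is not reported here. Gm13340, Gm13341 and the list genes named between the sexes fall outside this rule and were named after their values were seen. The members and lists were chosen with earlier results of these data known. Tables and plots were made in Python 3.11.15 (pandas 2.3.3, scipy 1.17.1, numpy 2.4.6; plots by matplotlib 3.10.9) and fits in R 4.3.3.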

Additional observations from a re-analysis of the deposited data

How the results depend on the processing

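No alternative scaling, filter, test or left-out liver called a member for the statin in either sex or for the interaction. Between the sexes, DESeq2 called 1 member on chow and 1 on statin, mt-Nd2 in each case. Over both diets 3 members were called by DESeq2 (9.99% of all genes lower) and 3 with library size alone as scaling (11.0%), mt-Nd2, mt-Nd4 and mt-Nd5 in each, and 1 to 2 when a liver was left out, the 2 (mt-Nd2 and mt-Atp6) without female chow 3 (5.58%). The call of mt-Nd2 held in every one of these settings, with log2 differences from -0.49 to -0.38, and from -0.46 to -0.39 with a liver left out. The sex difference of mt-Nd1 changed sign under upper quartile scaling, under the stricter filter and without some livers, and that of mt-Co2 without male statin 3.

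With library size alone the log2 fold change in females turned to -0.0197 for mt-Nd1 and to -0.0179 for mt-Nd5. Leaving out a liver gave -0.0788 to 0.0931 for mt-Nd1, -0.0305 to 0.20 for mt-Co2, -0.15 to 0.46 for mt-Atp6, -0.00315 to 0.17 for mt-Nd4, -0.0869 to 0.0929 for mt-Nd5 and -0.18 to 0.0449 for mt-Nd6 in females, and -0.45 to 0.0339 for mt-Co2 and -0.00857 to 0.12 for mt-Nd4 in males. The cause of these changes of sign was not tested. With no change of sign, mt-Co1 ran from 0.0211 to 0.171 in females and from 0.0796 to 0.313 in males, mt-Co3 from 0.146 to 0.550 in females and from -0.653 to -0.215 in males, mt-Cytb from 0.0740 to 0.233 and from 0.0397 to 0.213, mt-Nd2 from 0.0811 to 0.174 and from 0.0707 to 0.205, and in males mt-Nd6 from 0.0939 to 0.391, mt-Nd1 from 0.116 to 0.248, mt-Nd5 from 0.0467 to 0.141 and mt-Atp6 from -0.444 to -0.101. The members' median ranged from 0.05 to 0.15 in females and from 0.04 to 0.14 in males with a liver left out.

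Same-numbered livers are different mice. Their deviations from the group means had mean correlations of -0.29 in females and -0.34 in males, against 0.15 and 0.17 for livers with other numbers. The deviations within a group sum to 0, so the latter values follow largely from the former and are no separate comparison. The numbers were not taken to pair the livers. A fit with that number as a replicate block kept the members called at 0 for the statin in each sex, the median was 0.10 in females and 0.10 in males, and 1 member, mt-Nd2, was called between the sexes (log2 difference -0.42).

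mt-Co2, mt-Co3 and mt-Atp6 rest on 198 to 401 counted reads per liver together, which limits the precision of their values; why so few were counted was not tested.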
